A study of Homo sapiens with 6 samples.

Results

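The nuclear genes of oxidative phosphorylation were taken as the genes whose symbol in the probe annotation starts with NDUFA, NDUFB, NDUFC, NDUFS, NDUFV, UQCR, COX4 to COX8 or ATP5, or is one of SDHA to SDHD, with pseudogenes left out. The annotation held 91 such symbols, of which 81 were measured among 12187 measured genes, and 2 pseudogenes were left out. Their RNA was measured in 3 human cancer cell lines: a line of ovarian cancer, OVCAR5, and the colon cancer lines HCT116 and COLO205. Cells of each line received either vehicle or imetelstat (GRN163L), an oligonucleotide that binds the RNA template of telomerase and blocks the enzyme, for 2 weeks. Total RNA from each of the 6 cultures was hybridised to 1 Illumina bead array, and all 6 arrays lay on a single chip. HCT116 was grown in DMEM and the other lines in RPMI1640, so line and medium cannot be told apart between HCT116 and the others. The labels call the control agent vehicle, the study's methods name a mismatch oligonucleotide, its description of the array experiment speaks of untreated cells, and the sources do not settle which of them these arrays hold. The methods give 3 biological replicates for all experiments, while the labels give 1 array for each line and treatment, so differences between imetelstat and vehicle within a line have no replicate and carry no p-value.

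Oxidative phosphorylation is carried out in the inner mitochondrial membrane by 5 protein complexes. Complex I takes electrons from NADH and complex II from succinate, both pass them to ubiquinone, complex III hands them on to cytochrome c and complex IV reduces oxygen. Complexes I, III and IV pump protons, and complex V, the ATP synthase, uses their return to make ATP. Most subunits are encoded in the nucleus and are imported, and a smaller set that forms much of the membrane core is encoded by mitochondrial DNA and was not analysed here. Many cancer lines keep this pathway active beside glycolysis.

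The measured genes comprised 6 core subunits of complex I, 27 other complex I subunits, 8 complex I assembly factors (NDUFAF genes, which are not part of the finished complex), 3 genes of complex II, 8 of complex III, 11 of complex IV and 18 of complex V. ATP5IF1, the inhibitor that blocks ATP synthase when it runs in reverse, and COX7A2L, which takes part in joining complexes III and IV, carry such a symbol and were counted with complexes V and IV. A gene counted as measured when at least 1 of its probes had a detection p-value under 0.01 on at least 1 array, and its brightest detected probe was used. The 10 genes with no detected probe were COX4I2, COX6A2, COX6B2, COX7A1, COX7B2, COX8C, NDUFA5, NDUFB4, NDUFS6 and the antisense RNA NDUFB2-AS1. The first 6 of these are the isoforms of complex IV subunits that are restricted to some tissues, such as muscle, lung or testis, and their widely expressed paralogues COX4I1, COX6A1, COX6B1, COX7A2, COX7B and COX8A were detected on all 6 arrays. NDUFAF8 and NDUFB1 were detected on 4 arrays and NDUFC2 on 2, neither of them labelled COLO205, which leaves 80 genes for the ratio in that line. SDHB and UQCRFS1 were not analysed here. UQCRH and UQCRHL are near-identical copies, so their probes may read either transcript.

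The mean signal per array lay between 359.8 and 487.5 intensity units, with the imetelstat array labelled COLO205 the dimmest and its vehicle array at 458.6. The detected probes numbered between 15627 and 17276 per array. Of 12 colon epithelium markers, 4 were detected on each array labelled HCT116 or COLO205 (CDX2, EPCAM, KRT8 and KRT18). On the vehicle and imetelstat arrays of OVCAR5 10 and 8 were. CDH17, KRT20, CEACAM5 and CEACAM6 were detected on both OVCAR5 arrays and on neither array labelled COLO205. Of 6 ovarian surface or Muellerian markers, 3 or 4 were detected on every array, MSLN and FOLR1 on each, so this list did not separate the lines. ALB, a liver gene that a culture should lack, was detected on every array but the COLO205 imetelstat array, so detection alone is weak evidence of cell type. Over all genes the arrays labelled COLO205 and HCT116 lay close together. The COLO205 vehicle array had a median absolute log2 difference of 0.15 to 0.16 from both HCT116 arrays and 0.16 from its own imetelstat array, compared with 0.36 to 0.39 between OVCAR5 and the other lines. More colon markers were detected on the arrays labelled OVCAR5 than on those labelled HCT116 or COLO205. Whether the arrays labelled COLO205 or OVCAR5 hold RNA of those lines was not tested, and each result on a line rests on its label. The name of each line, and colon lines for HCT116 and COLO205, are used below for the arrays that carry that label.

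In the ratio of imetelstat to vehicle, the oxidative phosphorylation genes as a whole stayed close to all genes in each line. Their median log2 ratio was 0.00 in HCT116, where that of all genes was 0.01. It was -0.04 in COLO205 and -0.01 in OVCAR5, where that of all genes was -0.01 each time. No member was 2-fold lower or higher in any line, against 0.827% of all genes in HCT116, 0.297% in COLO205 and 0.598% in OVCAR5. In HCT116, 8 of 81 members were at least 1.2-fold lower and 9 at least 1.2-fold higher, where 13.0% and 14.1% of all genes were. In COLO205, 10 of 80 members were at least 1.2-fold lower and 16 at least 1.2-fold higher, where 16.8% and 15.7% of all genes were. In OVCAR5, 5 of 81 members were at least 1.2-fold lower and 9 at least 1.2-fold higher, where 12.6% and 12.3% of all genes were. Signals are of whole cultures, in which fewer cells that express a gene and less RNA per cell cannot be told apart. In COLO205 the balance depended on the scaling of its dim imetelstat array. With arrays scaled to a common median in place of quantile normalization, the COLO205 median was -0.45 for the members and -0.26 for all genes, and 55 members were at least 1.2-fold lower and 2 at least 1.2-fold higher. With no scaling these medians were -0.49 and -0.31, with 57 members lower and 1 higher. Both all-gene medians lay past the 1.2-fold limit of 0.263 log2 units, so these counts do not by themselves set the members apart. The share of all genes past that limit was not computed for these scalings. Under both scalings the members lay 0.18 log2 units below all genes, against 0.03 with quantile normalization. Members were brighter than all genes, with median log2 signals of 11.36 and 8.11 on that imetelstat array after quantile normalization. The part of brightness in the gap was not tested. Below, 3 ratios given in a row are those of HCT116, COLO205 and OVCAR5, in that order, on the log2 scale.

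**Figure D1:**
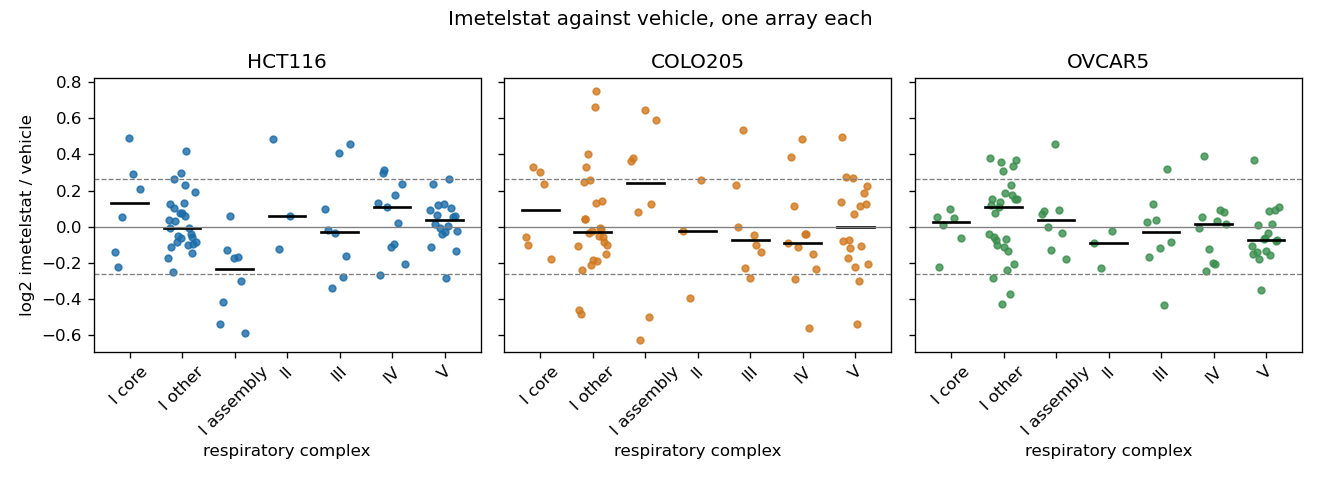
Each point is 1 gene, placed by respiratory complex, and the vertical axis gives its log2 ratio of imetelstat to vehicle from 1 array each, in HCT116 (left), COLO205 (centre) and OVCAR5 (right). Black bars are medians and dashed lines mark 1.2-fold. The complex I assembly factors have medians of -0.24 in HCT116 and 0.24 in COLO205, and the other medians lie within 0.13 of 0.

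The complex I assembly factors were, after quantile normalization, the group of members furthest from 0 in HCT116 and in COLO205, in opposite directions, but not in OVCAR5. These proteins build complex I from its modules and leave before it is finished. In HCT116, 7 of 8 were lower with imetelstat, with a median log2 ratio of -0.24, and 4 were at least 1.2-fold lower. In COLO205, 6 of 8 were higher, with a median of 0.24, and 4 were at least 1.2-fold higher while 2 were at least 1.2-fold lower. With arrays scaled to a common median the COLO205 median was -0.08 and with no scaling -0.13. Each of these lay 0.18 above the median of all genes, against 0.25 with quantile normalization. In OVCAR5 the median was 0.04. NDUFAF4 had log2 signals of 8.88 and 8.29 on the vehicle and imetelstat arrays of HCT116, 8.12 and 7.94 on those of OVCAR5 and 8.64 and 9.22 on those of COLO205. Its ratios were thus -0.59, 0.59 and -0.18, while a second, dimmer probe of this gene gave -0.53, -0.32 and 0.29. NDUFAF1, which acts in the membrane arm, stood at -0.54 in HCT116 and 0.36 in COLO205, with 0.07 in OVCAR5. NDUFAF6 had -0.42, 0.38 and 0.09. NDUFAF8 and NDUFAF2 went the other way in COLO205, at -0.62 and -0.50, the lowest and the fourth lowest members there. NDUFAF8 was detected on 4 arrays only, and its log2 signal on the COLO205 imetelstat array was 6.89, near the background. NDUFAF5, which modifies a core subunit, was the highest member of OVCAR5 at 0.46 and stood at 0.64 in COLO205 and -0.17 in HCT116. A second, dimmer probe of NDUFAF5 gave -0.22, 0.20 and 0.15.

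The core subunits of complex I, which hold the flavin and the iron-sulfur clusters, had medians of 0.13, 0.09 and 0.03 in HCT116, COLO205 and OVCAR5. The COLO205 value was -0.20 with arrays scaled to a common median and -0.24 with no scaling, each 0.07 above all genes. NDUFV1, the subunit that binds NADH, was the highest member of HCT116. Its log2 signals were 10.15 on the vehicle and 10.64 on the imetelstat array of HCT116, 11.16 and 11.26 on those of OVCAR5 and 10.27 and 10.58 on those of COLO205. NDUFS3 had ratios of 0.29, 0.24 and 0.05. Among the 27 other complex I subunits, the medians were -0.01, -0.03 and 0.11. With arrays scaled to a common median the HCT116 value was 0.05 and the COLO205 value -0.46, and with no scaling the latter was -0.51. Relative to all genes both of these COLO205 values were -0.20, against -0.02 with quantile normalization. NDUFA10 was the highest member of COLO205 at 0.75, with 0.23 in HCT116 and -0.24 in OVCAR5, and its second probe gave 0.07 in COLO205. NDUFA8 stood at 0.66 in COLO205, with 0.13 and 0.19 in the other lines. NDUFA2 and NDUFB10 lay at -0.48 and -0.46 in COLO205, while in OVCAR5 NDUFB10 was among the 5 highest members at 0.38. NDUFB11 was at 0.42 in HCT116, and NDUFA7 at 0.37 in OVCAR5. NDUFS5 and NDUFA3 were among the 5 lowest members of OVCAR5, at -0.43 and -0.37, with NDUFB6 at -0.28. The second probe of NDUFB6 gave -0.02, 0.28 and 0.13.

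Complex II, which is also an enzyme of the citric acid cycle, was measured through 3 genes. SDHA, the catalytic flavoprotein, had log2 signals of 10.08 and 10.56 on the vehicle and imetelstat arrays of HCT116, 10.49 and 10.40 on those of OVCAR5 and 10.39 and 10.37 on those of COLO205. Its HCT116 ratio of 0.48 was the second highest in that line, and its second probe gave 0.29 there, with -0.14 in COLO205 and -0.56 in OVCAR5. SDHC and SDHD anchor the enzyme in the membrane. SDHC had ratios of 0.06, 0.26 and -0.02, while its second probe gave 0.30, -0.40 and -0.31, and the COLO205 ratio of the first was -0.12 with arrays scaled to a common median. SDHD was lower with imetelstat in all 3 lines, at -0.13, -0.40 and -0.23.

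In complex III, 2 members were at least 1.2-fold lower and 2 at least 1.2-fold higher in HCT116. UQCRC1 and UQCRC2, the core proteins, were higher with imetelstat in HCT116 at 0.46 and 0.41 and had -0.14 and -0.28 in COLO205 and -0.08 and -0.12 in OVCAR5. UQCRB, which helps bind ubiquinone, had -0.34, 0.53 and 0.13, and its second probe gave 0.08, -0.43 and -0.05. UQCR11 had -0.28, -0.05 and -0.43 and was the lowest member of OVCAR5. UQCRHL stood at 0.32 in OVCAR5.

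In complex IV, the HCT116 median was 0.11, the COLO205 median -0.09 and the OVCAR5 median 0.02, which turned to -0.01 with no scaling. The COLO205 value was -0.53 with arrays scaled to a common median and -0.57 with no scaling. Relative to all genes each was -0.26, against -0.08 with quantile normalization. COX8A, the widely expressed form of the smallest subunit, had 0.30, 0.12 and 0.39. COX5B had 0.31, -0.29 and -0.25, and COX6C had -0.27, 0.39 and 0.05. COX6B1 and COX7A2 lay at 0.48 and -0.56 in COLO205. COX4I1, COX6A1 and COX7A2L passed 1.2-fold in no line, and the largest of their ratios was 0.23, of COX6A1 in HCT116. COXFA4, the complex IV subunit whose older symbol is NDUFA4, falls outside the symbol rule and had -0.25, -0.28 and -0.08.

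Complex V, the largest group after complex I, had medians of 0.04, 0.00 and -0.07. The COLO205 value was -0.36 with arrays scaled to a common median and -0.41 with no scaling. Relative to all genes each was -0.10, against 0.01 with quantile normalization. The catalytic subunit ATP5F1B had log2 signals of 14.11 and 14.19 in OVCAR5, compared with 14.24 and 14.25 in HCT116 and 14.48 and 14.18 in COLO205. ATP5ME, a membrane subunit, was among the 5 lowest members of HCT116 and of COLO205, at -0.28 and -0.54, and its second probe gave 0.22 and 0.24. ATP5MK stood at 0.49 in COLO205. The 3 genes ATP5MC1, ATP5MC2 and ATP5MC3 encode the same mature ring subunit, and had, in this order, ratios of 0.10, -0.01 and -0.02 in HCT116. The COLO205 ratios were -0.11, -0.12 and -0.21, where a second probe of ATP5MC1 gave 0.61, and the OVCAR5 ratios 0.02, -0.35 and 0.11. A dimmer probe of ATP5MC2, detected on 3 arrays, gave 0.01 in OVCAR5. The inhibitor ATP5IF1 had 0.24, -0.08 and 0.37, and its second probe gave -0.06, 0.11 and -0.05.

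Second probes were available for 22 of the genes, 25 probes in all. The other probe had the same sign of ratio as the chosen one for 16 of 25 in OVCAR5, 13 in HCT116 and 12 in COLO205. The median gap between both probes of a gene was 0.16 log2 units in HCT116, 0.20 in COLO205 and 0.17 in OVCAR5, compared with a median absolute ratio over the members of 0.12, 0.19 and 0.12.

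Directions shared by all lines were few. Of the 80 members detected in each line, 12 were lower with imetelstat in all 3 lines, namely NDUFV2, NDUFA1, NDUFA3, NDUFA12, NDUFB6, SDHD, UQCR11, UQCRH, COX7C, ATP5MC2, ATP5ME and ATP5PO. This is 15% of the members, and 10.5% of all genes were lower in all lines. Another 8 were higher in all 3 lines, namely NDUFS3, NDUFS7, NDUFV1, NDUFA8, NDUFB1, UQCR10, COX8A and ATP5MG, which is 10% against 10.8% of all genes. These counts rest on quantile normalization. With arrays scaled to a common median, 9 of the 12 were still lower in all lines and of the 8 higher ones only NDUFA8 and NDUFB1 remained. With no scaling the counts were again 9 and 2. NDUFB1 was detected on 4 arrays only, with log2 signals of 6.92 to 7.47, near the background. With the mean of a gene's detected probes, 9 of the 12 and 6 of the 8 remained. None passed 1.2-fold in all 3 lines. In the limma fit across lines with the line as a block, 0 of 81 members and 0% of all genes passed an adjusted p of 0.05 in either direction. At an unadjusted p under 0.05 there were 2 members, 2.47%, against 2.70% of all genes. They were NDUFA8, at a mean log2 ratio of 0.33 with a standard error of 0.14, and NDUFV1, at 0.30 with a standard error of 0.13, both with an adjusted p of 1.00 by limma. Both were higher in 3 of 3 lines, but the COLO205 ratio of NDUFV1 was -0.11 with arrays scaled to a common median and -0.16 with no scaling, where NDUFA8 stayed higher in each line. The 95% interval of a member's mean ratio, not adjusted for the number of genes, had a median half-width of 0.28 log2 units. With 3 pairs, smaller differences could not be seen and larger ones could also be missed. NDUFA8 and NDUFV1 lay above 0.28 and did not pass after adjustment. These p-values measure the scatter among 3 lines with 1 array per treatment each.

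**Figure D2:**
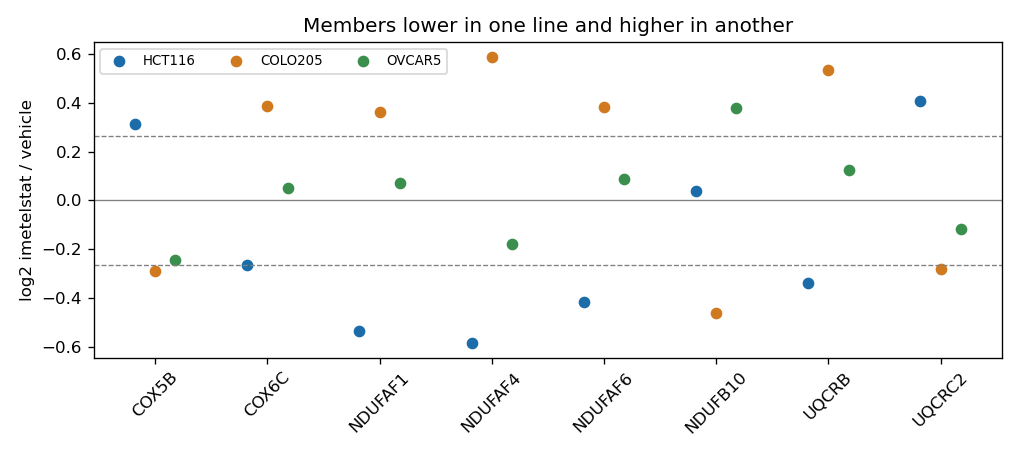
Log2 ratio of imetelstat to vehicle (vertical axis, 1 array each) in HCT116, COLO205 and OVCAR5 for the 8 genes that were at least 1.2-fold lower in one line and at least 1.2-fold higher in another, with dashed lines at 1.2-fold. In 7 of the 8 the lines that differ are HCT116 and COLO205, and NDUFAF4 spans from -0.59 to 0.59. Values are after quantile normalization, and with arrays scaled to a common median 3 of the 8 still met the limit in both directions.

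Other genes that serve the same pathway and fall outside the symbol rule were read in the same way. Of 38 measured assembly factors of other kinds, including those of complexes II to V, 9 were at least 1.2-fold lower and 7 at least 1.2-fold higher in HCT116. These counts were 4 and 9 for COLO205 and 5 and 4 for OVCAR5. Over all genes the shares were 13.0% lower and 14.1% higher in HCT116, while COLO205 had 16.8% and 15.7%, and OVCAR5 12.6% and 12.3%. The COLO205 median of this list was 0.10, with 22 of 37 genes higher. It was -0.23 with arrays scaled to a common median, where 31 were lower, and -0.27 with no scaling. Relative to all genes it was 0.04 under both scalings, against 0.11 with quantile normalization. UQCC3, a complex III assembly factor, had ratios of -0.18, 0.85 and 0.44. Among 20 genes of electron carriers and ubiquinone synthesis the medians were 0.08, 0.01 and -0.07. The COLO205 value was -0.27 with arrays scaled to a common median, where that of all genes was -0.26. SQOR, which passes electrons from sulfide to ubiquinone, was lower in all 3 lines at -0.35, -0.24 and -0.15. Among the carriers and pores, VDAC1, the main outer membrane channel, had -0.05, -0.38 and -0.51. Of 11 citric acid cycle genes, 9 were higher with imetelstat in HCT116 with a median of 0.21, and 8 were lower in COLO205 with a median of -0.16. That median was -0.53 with arrays scaled to a common median, -0.58 with no scaling and -0.05 with the mean of a gene's detected probes. Relative to all genes it was -0.27 under both scalings, against -0.15 with quantile normalization. DLST, a subunit of the 2-oxoglutarate dehydrogenase complex, had 0.24, -0.82 and 0.02.

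The regulators of mitochondrial transcription were mostly lower with imetelstat in HCT116 and mostly higher in COLO205, where the balance depended on the scaling. In HCT116, 10 of 13 detected genes were lower, with a median log2 ratio of -0.09, where 49.05% of all genes were lower. In COLO205, 11 of 14 were higher, with a median of 0.39, and 8 were at least 1.2-fold higher. Over all genes 5107 of 10445 were higher there, and 15.7% were at least 1.2-fold higher. With arrays scaled to a common median the COLO205 median of the regulators was 0.06 and with no scaling 0.01, each 0.32 above all genes. TFB2M, a factor that helps the mitochondrial RNA polymerase start, had -0.22, 0.79 and -0.14. TFAM, which packages and transcribes mitochondrial DNA, had -0.01, 0.50 and -0.02, and NRF1, a nuclear regulator of many respiratory genes, had -0.03, -0.34 and -0.17. Of 76 mitochondrial ribosome genes, 48 were lower in HCT116 and 51 were higher in COLO205, with medians of -0.09 and 0.08. With arrays scaled to a common median the COLO205 value was -0.28. Relative to all genes this was -0.02, against 0.08 with quantile normalization. None of the genes in these lists passed the limma fit across lines.

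Some members differed in level between OVCAR5 and the colon lines, in both directions within complexes I and III, but a smaller share than of all genes. At an adjusted p under 0.05 by limma, 30.9% of members differed from HCT116, against 41.0% of all genes. From COLO205 33.3% differed, against 41.9% of all genes. The treatment was a covariate in this limma fit, so the spread is that of the arrays of a line after the mean treatment difference and does not measure a spread between cultures. Against HCT116, 8 of 81 members were higher and 17 lower in OVCAR5 at an adjusted p under 0.05, where 19.3% and 21.7% of all genes were. Against COLO205, 9 were higher and 18 lower, where 19.6% and 22.2% of all genes were. Both comparisons use the same OVCAR5 arrays. OVCAR5 was higher than each of the other lines for 6 members, where 16.4% of all genes were, and lower than each for 11, where 17.7% were. The share of members that were higher was thus below that of all genes. Without the HCT116 vehicle array the count against HCT116 was 15, and without the OVCAR5 vehicle array it was 16, in place of 25. Against COLO205 it was 12 without the COLO205 imetelstat array, 16 without the OVCAR5 vehicle array and 14 without the OVCAR5 imetelstat array, in place of 27.

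**Figure D3:**
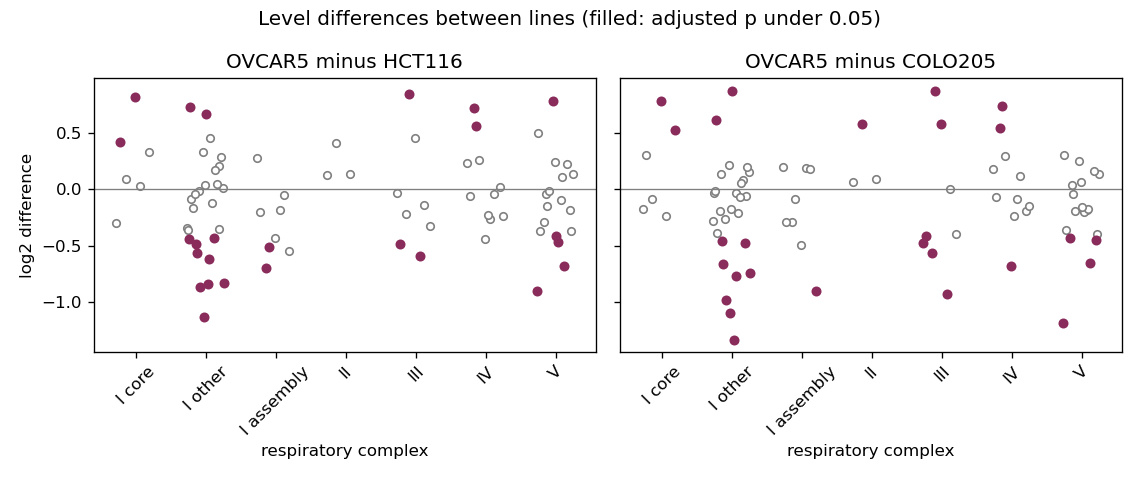
Each point is 1 gene, placed by respiratory complex, and the vertical axis gives the log2 difference of OVCAR5 minus HCT116 (left) and OVCAR5 minus COLO205 (right). Filled points had an adjusted p under 0.05 by limma (25 on the left and 27 on the right), and they lie on both sides of 0 in complexes I and III in each panel.

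The members higher in OVCAR5 than in both lines were UQCRQ, NDUFV1, COX8A, NDUFB5, NDUFA2 and COX5B. UQCRQ, a small subunit of complex III, had log2 signals of 12.86 and 12.83 on the vehicle and imetelstat arrays of HCT116, 13.68 and 13.71 on those of OVCAR5 and 12.93 and 12.71 on those of COLO205. The OVCAR5 arrays lay above the other 4, 1.80-fold above HCT116 (log2 difference 0.85, standard error 0.15, adjusted p = 0.00127) and 1.83-fold above COLO205. NDUFV1 was 1.76-fold above HCT116 (adjusted p = 0.00202) and 1.72-fold above COLO205 (adjusted p = 0.00250), again with no overlap. COX8A had log2 signals of 13.57 and 13.96 in OVCAR5, compared with 12.90 and 13.19 in HCT116 and 13.17 and 13.28 in COLO205. It was 1.65-fold above HCT116 (adjusted p = 0.00327) and 1.46-fold above COLO205 (adjusted p = 0.0146). NDUFB5 was 1.59-fold and 1.82-fold higher, NDUFA2 1.66-fold and 1.53-fold higher, and COX5B, a subunit that binds zinc, 1.48-fold and 1.67-fold higher. ATP5MJ, a small membrane subunit of the ATP synthase, was 1.72-fold above HCT116 (adjusted p = 0.00252 by limma), while its difference from COLO205 was 0.25 with a standard error of 0.16. SDHD lay 0.58 log2 units above COLO205 (standard error 0.15, adjusted p = 0.0106), and SDHA and SDHC did not pass against either line, at 0.13 and 0.14 against HCT116 with standard errors of 0.18 and 0.15.

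The members lower in OVCAR5 than in both lines were NDUFS5, NDUFA8, NDUFB8, NDUFB9, NDUFC1, NDUFB2 and NDUFA11 of complex I, UQCR11 and UQCRH of complex III, and ATP5F1A and ATP5MC1 of complex V. NDUFS5, an accessory subunit of the membrane arm of complex I, had log2 signals of 11.93 and 11.50 in OVCAR5, compared with 12.88 and 12.81 in HCT116 and 12.74 and 12.88 in COLO205. It was 2.18-fold below HCT116 (log2 difference -1.13, standard error 0.17, adjusted p = 0.000440) and 2.13-fold below COLO205. NDUFA8 had 11.02 and 11.21 in OVCAR5, compared with 11.88 and 12.01 in HCT116 and 12.11 and 12.77 in COLO205. It was 1.78-fold below HCT116 and 2.51-fold below COLO205 (adjusted p = 0.000144). ATP5F1A, the alpha subunit that forms the catalytic head of the ATP synthase together with ATP5F1B, had 12.25 and 12.14 in OVCAR5, compared with 13.05 and 13.14 in HCT116 and 13.31 and 13.45 in COLO205. It was 1.86-fold below HCT116 (adjusted p = 0.000857) and 2.27-fold below COLO205 (adjusted p = 0.000133), and its second probe gave log2 differences of -0.82 and -0.95. ATP5F1B did not pass, at -0.10 against HCT116 with a standard error of 0.16. NDUFB8 was 1.82-fold below HCT116 and 1.97-fold below COLO205, and NDUFB9 1.77-fold and 1.67-fold. ATP5MC1 had log2 differences of -0.68 and -0.65, with a second probe at -1.48 and -1.61, while ATP5MC2 and ATP5MC3 did not pass. For all 17 genes the direction was the same in the 16 other settings of this fit. NDUFS5, NDUFA8, NDUFB8, NDUFV1 and ATP5F1A passed against both lines in each of those settings, while UQCRH and NDUFA11 lost a call in 11 and 9 of them, NDUFB2 in 7, COX5B and NDUFA2 in 6 each and COX8A in 5. With arrays scaled to a common median 9 of the 17 passed against both lines, and with no scaling 6 did. Over the genes with 2 or more probes, 17 of the 25 other probes had the same sign of difference as the chosen one against HCT116, and 18 against COLO205.

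**Figure D4:**
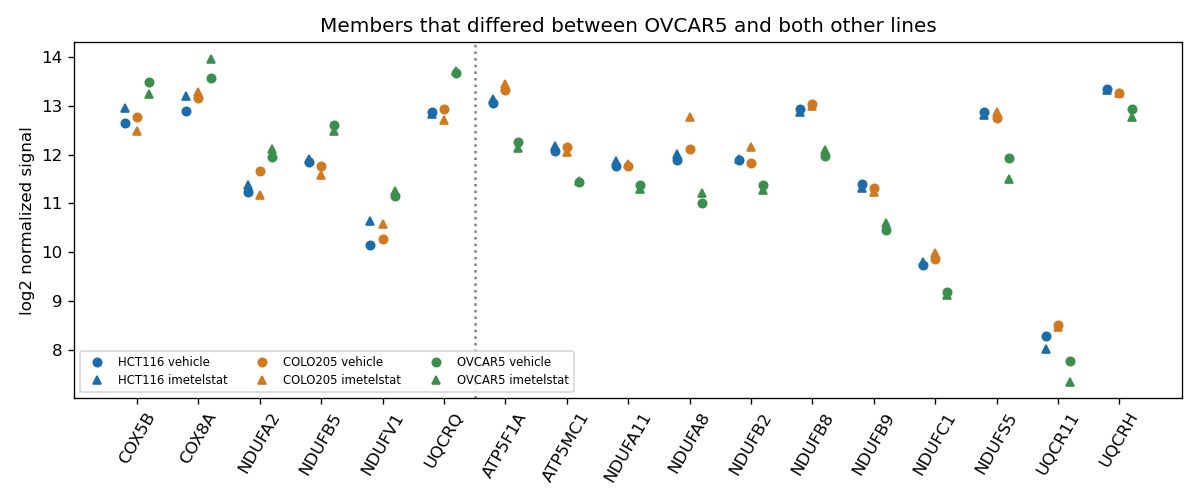
Log2 normalized signal (vertical axis) on the 6 arrays for the 17 genes that differed between OVCAR5 and both other lines, with circles for vehicle and triangles for imetelstat. Left of the dotted line are the 6 genes higher in OVCAR5 and right of it the 11 lower ones, and levels are to be compared within a gene only.

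By complex, the median level over members was 11.06 to 11.28 for the core subunits of complex I on the 4 arrays of the colon lines and 11.47 and 11.55 on the OVCAR5 arrays. For complex V it was 12.01 to 12.16 on the former and 11.78 and 11.60 on the latter. Between OVCAR5 and HCT116 the core subunits had a median log2 difference of 0.21, with 2 of 6 called higher (NDUFV1 and NDUFV2) and none lower, where 19.3% and 21.7% of all genes were called, and the other complex I subunits one of -0.12, with 2 called higher and 9 lower. Complex III had 1 member called higher and 2 lower against HCT116, and 2 higher and 4 lower against COLO205, where 19.6% and 22.2% of all genes were called. In the complex I assembly factors none was higher, NDUFAF3 and NDUFAF8 were lower against HCT116 and NDUFAF4 against COLO205. NDUFAF4 lost its call without the COLO205 imetelstat array, at -0.41 in place of -0.90.

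NDUFV1 and NDUFS8, both core subunits of complex I, lie on the same stretch of a chromosome in RefSeq, with 27 annotated genes between them of which 5 were measured. NDUFS8 was 1.44-fold higher in OVCAR5 than in COLO205 (adjusted p = 0.0216), and its difference from HCT116 was 0.33 with a standard error of 0.16. Of the 5 genes between, ALDH3B1, ALDH3B2, UNC93B1 and FAM86C2P were higher in OVCAR5 than in both lines, where 16.4% of all genes were. Their log2 differences from COLO205 were 1.75, 0.64, 1.32 and 0.52, and NUDT8 was not higher, at 0.10. NDUFV1, at 1 end of the stretch, was itself called higher against both lines. The number of copies of this stretch was not tested.

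Promoters of the genes are shown because nuclear respiratory genes are known to be regulated by GABP, a factor of the ETS family, and by NRF1. For 68 of the 81 genes a promoter was matched in RefSeq, build GRCh38.p14, and the 250 bases upstream of the start were searched on both strands. The ETS core CCGGAAG was found upstream of 19 of the 68 (27.9%), against 18.4% of all measured genes with a promoter and 10.2% of all genes in the promoter table. The NRF1 motif CGCATGCG was found for 7 (10.3%), against 3.88% of the measured genes and 2.14% of all, and the TATA box TATAAA for 6 (8.82%), against 8.39% and 13%. No pair of these motifs can share bases. Of the members called higher in OVCAR5 against either line, 4 of 10 with a promoter held the ETS core, and of those called lower 6 of 19 did. The following are 2 members higher in OVCAR5 and 2 lower that hold it, 5′ to 3′ on the strand of the gene, with CCGGAAG or its reverse complement in capitals.
UQCRQ, chr5:132866392-132866641, plus strand: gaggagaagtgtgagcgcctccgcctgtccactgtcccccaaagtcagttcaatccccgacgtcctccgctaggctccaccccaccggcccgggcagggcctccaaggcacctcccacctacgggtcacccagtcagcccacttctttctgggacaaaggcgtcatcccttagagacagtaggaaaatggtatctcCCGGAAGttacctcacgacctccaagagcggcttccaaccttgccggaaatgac
COX8A, chr11:63974370-63974619, plus strand: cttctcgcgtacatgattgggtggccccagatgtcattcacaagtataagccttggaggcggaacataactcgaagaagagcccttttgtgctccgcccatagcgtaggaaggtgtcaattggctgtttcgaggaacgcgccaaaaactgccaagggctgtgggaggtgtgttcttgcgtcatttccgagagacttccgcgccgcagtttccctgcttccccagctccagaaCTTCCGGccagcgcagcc
ATP5F1A, chr18:46098297-46098546, minus strand: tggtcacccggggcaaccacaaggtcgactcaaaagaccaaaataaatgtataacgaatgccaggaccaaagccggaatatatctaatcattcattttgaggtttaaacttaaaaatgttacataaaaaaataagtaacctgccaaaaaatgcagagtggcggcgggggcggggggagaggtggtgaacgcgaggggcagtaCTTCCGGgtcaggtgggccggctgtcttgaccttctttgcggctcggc
UQCR11, chr19:1605463-1605712, minus strand: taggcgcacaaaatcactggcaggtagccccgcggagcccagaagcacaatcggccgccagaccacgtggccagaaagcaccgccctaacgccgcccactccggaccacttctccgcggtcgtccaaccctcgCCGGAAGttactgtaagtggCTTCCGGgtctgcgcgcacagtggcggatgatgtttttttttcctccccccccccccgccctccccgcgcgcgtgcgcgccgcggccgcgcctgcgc
The core began 54 bases upstream of the start in UQCRQ, 18 in COX8A, 48 in ATP5F1A, and 117 and 97 in UQCR11, which holds it on each strand. ATP5F1A has 2 annotated start windows, of which 1 held the core and is shown. Members that were higher and members that were lower in OVCAR5 thus both carried it, and a match describes letters and not a bound site.

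No member passed the test between COLO205 and HCT116. In the limma fit between them 0 of 81 members passed in either direction, where 0.279% of all genes were higher in COLO205 and 0.730% lower. An unadjusted p under 0.05 was reached by 8 members, 9.88%, against 11.4% of all genes. The interval of a difference had a median half-width of 0.35 log2 units. Over the members the closest array pair was HCT116 imetelstat with COLO205 vehicle, at a median absolute log2 difference of 0.11. In this pair 12 members, 14.8%, were at least 1.2-fold apart, against 24.6% of all genes. The vehicle and imetelstat arrays of HCT116 differed by 0.12, with 17 members apart, 21.0% against 24.8% of all genes. The COLO205 imetelstat array lay 0.19 from its own vehicle array and 0.22 from each HCT116 array, with 26 to 37 members apart. From its vehicle array 32.1% of members were apart, against 28.8% of all genes. From the vehicle and imetelstat arrays of HCT116 44.4% and 45.7% were, against 37.2% and 39.3% of all genes. The COLO205 imetelstat array was the highest of the 6 for 23 members (28.4%, against 19.7% of all genes). It was the lowest for 19 (23.5%, against 18.5%). The OVCAR5 arrays differed from each other by 0.12 and from the other 4 by 0.26 to 0.38, where the latter range over all genes was 0.36 to 0.39. Both OVCAR5 arrays lay above the other 4 for 15 members (18.5%, against 27.5% of all genes) and below them for 26 (32.1%, against 32.7%).

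**Figure D5:**
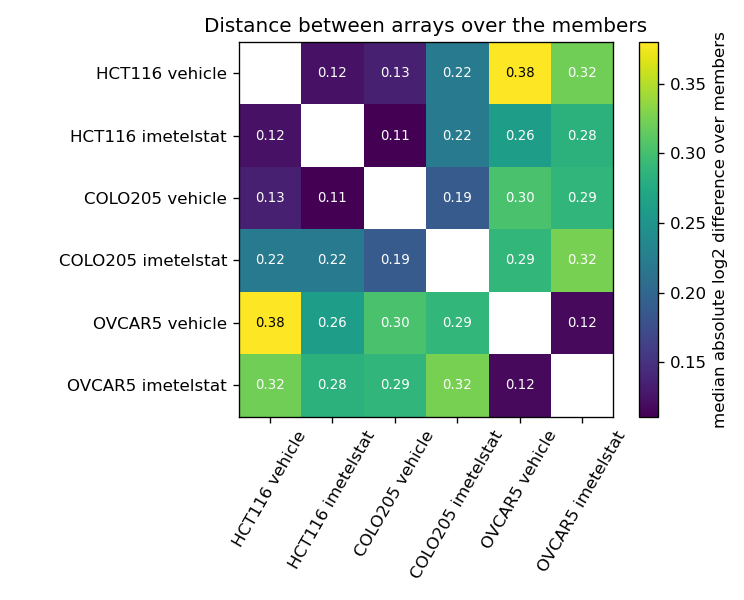
Median absolute log2 difference over the 81 genes between each pair of arrays (colour and printed value). The HCT116 arrays and the COLO205 vehicle array lie within 0.11 to 0.13 of each other, the COLO205 imetelstat array stands 0.19 to 0.22 from them, and the OVCAR5 arrays stand 0.26 or more from all of these.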

How the data were processed

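RNA of 3 cell lines, each with vehicle or imetelstat, was read on 1 array per line and treatment. The signal intensity values deposited by the authors are averages over beads, linear and not yet normalized, and the deposited detection p-value compares each probe with negative control beads. The authors also deposited a table of processed intensity values, used here as an alternative only. The methods name GenomeStudio, log2 values and quantile normalization with lumi.

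From the signals, log2 was taken and quantile normalization was run over the 6 arrays. Of 47231 probes, 30113 had 1 gene symbol in the platform annotation and 21099 were detected (p under 0.01) on at least 1 array. Each gene was read from its brightest detected probe. Ratios within a line are single array pairs. The fits used limma 3.58.1 in R 4.3.3 with Benjamini-Hochberg adjustment over all 12187 genes: the line as a block for imetelstat, and treatment as a covariate for contrasts between lines, the latter with 2 residual degrees of freedom before moderation across genes. The models were tested on simulated data. The number of arrays limits the precision. Names, neighbours and promoters came from RefSeq (GRCh38.p14), and the files name no build. For mitochondrial ribosome genes, symbols of antisense RNAs and pseudogenes were left out. Python 3.11.15 was used for summaries.

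Members, gene lists and tests were chosen with earlier results of these data known. Named were complex II genes, the 5 largest falls and rises per line, up to 10 calls per contrast with the largest difference, isoforms, ATP5IF1, and up to 4 genes of each other list by mean ratio; others named were chosen after their values were seen. Alternatives changed background correction, scaling, the offset before log2, the detection filter, the probe rule, the fold limit, the block, the covariate and the arrays.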

Additional observations from a re-analysis of the deposited data

Results flagged for a closer look

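In 8 of the 81 genes (9.88%, against 10.1% of all genes) the ratio of imetelstat to vehicle was at least 1.2-fold lower in one line and at least 1.2-fold higher in another. The difference between lines was not tested, since each ratio comes from 1 array against 1. In COLO205 above HCT116, the gap between the log2 ratios was 1.18 for NDUFAF4, 0.90 for NDUFAF1, 0.80 for NDUFAF6, 0.87 for UQCRB and 0.65 for COX6C. In HCT116 above COLO205, it was 0.69 for UQCRC2 and 0.61 for COX5B. NDUFB10 was the one gene for which OVCAR5 took part, with its ratio 0.84 above that of COLO205. With arrays scaled to a common median or with no scaling, COX5B, NDUFB10 and UQCRC2 still met this limit in both directions and the other 5, those with COLO205 above HCT116, did not. The COLO205 imetelstat array, which enters all 8 gaps, had the lowest mean signal, 359.8, and its part in these gaps was not tested. A second detected probe existed for NDUFAF4 and UQCRB, and its COLO205 ratio was -0.32 and -0.43, of the opposite sign to 0.59 and 0.53.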

How the results depend on the processing

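The medians in HCT116 and OVCAR5 moved by less than 0.1 log2 units under every setting tried. The COLO205 median of -0.04 was -0.45 with scaling to a common median and -0.49 with no scaling, where that of all genes was -0.26 and -0.31. The count of COLO205 members at least 1.2-fold apart went from 26 to 57 and 58. The cause of these and the other shifts was not tested. A limit of 1.1-fold gave 34, 47 and 34 members in HCT116, COLO205 and OVCAR5, and a limit of 1.5-fold gave 1, 5 and 0, in place of 17, 26 and 14.

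No member passed the fit across lines under any setting, with each pair of a line left out (0 to 0), or with no replicate block (0). Only the line pairs the arrays here. The members' count against HCT116 fell from 25 to 14 with scaling to a common median and 12 with no scaling, and leaving out each array in turn, which was added after seeing the data, gave 15 to 31. Against COLO205 it fell from 27 to 16 with normexp background correction, and to 15 with either of these scalings, and ranged from 12 to 26 with each array left out. Between COLO205 and HCT116 it was 0 under every setting. For the 20 calls between lines with the largest differences, 9 of 320 recomputed values lost their call and none changed direction. The calls against both lines were less stable, and of those 17 genes 9 kept both calls with scaling to a common median, 6 with no scaling and 11 with normexp. For the 30 largest ratios within a line, 37 of 239 recomputed values moved by 0.1 or more and none changed sign. Over all members, ratios changed sign for 23 of 80 in COLO205, 8 in HCT116 and 3 in OVCAR5 with scaling to a common median, for 26, 7 and 8 with no scaling, and for 5, 4 and 4 with the mean of detected probes.

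One array per condition limits the ratios within a line. Dim genes such as NDUFC2, NDUFB1 and NDUFAF8 have signals near the background on some or all arrays.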
